A study of Mus musculus with 6 samples.

Results

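The 7 genes described here belong to cholesterol synthesis and its control in mouse brain. They are Srebf2 and Insig1, which encode regulators, and Hmgcs1, Idi1, Fdft1, Sqle and Cyp51, which encode enzymes. They were chosen by gene symbol among the 27378 genes listed for each library, and all 7 were measured. The working name of the set also speaks of uptake, but none of the 7 encodes an uptake receptor, so genes of uptake are given beside them from a separate list. RNA was sequenced from whole brain of male wild-type (WT) C57BL/6J mice, an inbred laboratory strain, in 6 libraries. The PS group (n = 3) was given polystyrene nanoplastics, a particle pollutant, by the intranasal route for 28 days, and the control group (n = 3) was given sterile distilled water by that route for the same time. Age, dose and particle size are not given in the sources used here. The labels number the samples without saying that each came from its own animal, so a p-value here reflects how far these libraries differ among themselves, in part perhaps for technical reasons.

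Cells make cholesterol from acetyl-CoA through the mevalonate pathway and then, from squalene onward, through a chain of sterol intermediates. The transcription factor SREBP2, the product of Srebf2, is held in the endoplasmic reticulum by the escort protein SCAP and by INSIG proteins while sterols are plentiful. When sterols fall it is carried to the Golgi, cut free, and raises transcription of the synthesis genes at sterol regulatory elements (SREs). Circulating lipoproteins do not cross the blood-brain barrier in bulk, so the brain makes its own cholesterol, much of it in astrocytes and in oligodendrocytes, whose myelin is rich in it.

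RefSeq's promoter table (mouse build GRCm38.p6) held entries for 5 of the 7 genes. Below are the 250 bases before the annotated start of Hmgcs1 and Srebf2, which hold a match to an SRE core, and of Insig1, the member that varied most between libraries. Capitals mark the SRE core TCACNCCA, searched on both strands.

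Hmgcs1, chr13:119690101-119690350, plus strand: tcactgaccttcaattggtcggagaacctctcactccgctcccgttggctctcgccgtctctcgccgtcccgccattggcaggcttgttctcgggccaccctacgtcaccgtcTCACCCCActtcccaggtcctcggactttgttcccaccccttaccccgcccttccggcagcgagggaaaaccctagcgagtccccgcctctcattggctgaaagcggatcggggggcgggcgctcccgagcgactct

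Srebf2, chr15:82147019-82147268, plus strand: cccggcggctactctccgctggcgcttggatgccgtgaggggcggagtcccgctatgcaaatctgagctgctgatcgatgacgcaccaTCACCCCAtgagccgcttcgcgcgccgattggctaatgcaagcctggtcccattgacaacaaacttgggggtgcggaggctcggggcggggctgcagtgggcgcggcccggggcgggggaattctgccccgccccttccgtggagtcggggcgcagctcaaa

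Insig1, chr5:28071162-28071411, plus strand: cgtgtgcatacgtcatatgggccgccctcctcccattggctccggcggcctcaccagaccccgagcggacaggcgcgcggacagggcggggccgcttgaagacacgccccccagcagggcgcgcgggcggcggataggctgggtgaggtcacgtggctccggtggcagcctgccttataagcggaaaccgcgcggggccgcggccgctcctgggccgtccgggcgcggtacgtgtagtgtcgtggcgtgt

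The core lies 137 to 130 bases before the start in Hmgcs1 and 162 to 155 bases before it in Srebf2. Of 32536 distinct promoter windows of 250 bases, 3.65% hold this core. The longer form TCACNCCAC, which contains the core, is matched in Hmgcs1 alone of the 5, and in 1.04% of all windows. The NF-Y box CCAAT and the Sp1 box GGGCGG, both bound by partners of SREBPs, were found on 1 or the other strand in all 5 windows, and in 33.8% and 33.0% of all windows. Hmgcs1 has 3 CCAAT boxes, Idi1 has 2, and Srebf2, Insig1 and Cyp51 have 1 each. A match describes the letters only.

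Exposure to polystyrene nanoplastics was compared with water, the comparison the design implies. None of the 7 genes passed the test. Their mean levels in PS brains ran from 98.6% (Sqle) to 108.6% (Insig1) of the control mean, in FPKM, the fragments of a gene divided by its length and by the depth of its library. Every member had values that overlapped between the groups. Over all 12229 tested genes, 20 (0.164%) were called at an adjusted p under 0.05, and 11.3% did not overlap between groups (4.93% higher in PS and 6.33% lower). By limma on FPKM, and by limma-voom on recovered reads, 0 of the members were called, and in the former 0 had an unadjusted p under 0.05, which 5.94% of all tested genes had. Fold changes below are PS minus control on the log2(FPKM + 1) scale, with the 95% interval and the adjusted p of limma over all tested genes. In whole tissue, fewer cells of a type and less RNA per cell cannot be told apart.

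Depth was alike in the 6 libraries, at 39239183 to 40335590 reads behind the values. Control replicate 2 stood apart on the first principal component (42.3% of the variance), and the values that moved most without it are given both ways. It also held the lowest value of 6 of the 7 members, where 30.0% of all tested genes had their lowest value.

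Within each library, levels per gene length ranked the members in 1 order. Hmgcs1 was highest, at 50.9 ± 3.96 FPKM (SD over all 6 libraries), then came Srebf2 at 34.7 ± 1.35, Insig1 at 27.5 ± 4.85, Sqle at 19.3 ± 1.145, Cyp51 at 12.95 ± 1.16, Fdft1 at 9.09 ± 0.642 and Idi1 at 6.06 ± 0.552. Each neighbour stood above the next in 6 of 6 libraries. Across libraries, Insig1 overlapped both its neighbours: its highest value (33.7 FPKM) exceeded the lowest of Srebf2 (32.4 FPKM), and its lowest (19.3 FPKM) lay under the highest of Sqle (20.5 FPKM). No other neighbours overlapped. The order rests on the gene lengths behind the values. That of Fdft1 was 10420 bases, against 2648 (Insig1) to 5617 (Srebf2) for the other members. Its reads outnumbered those of Insig1, Sqle and Cyp51 in every library.

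**Figure D1:**
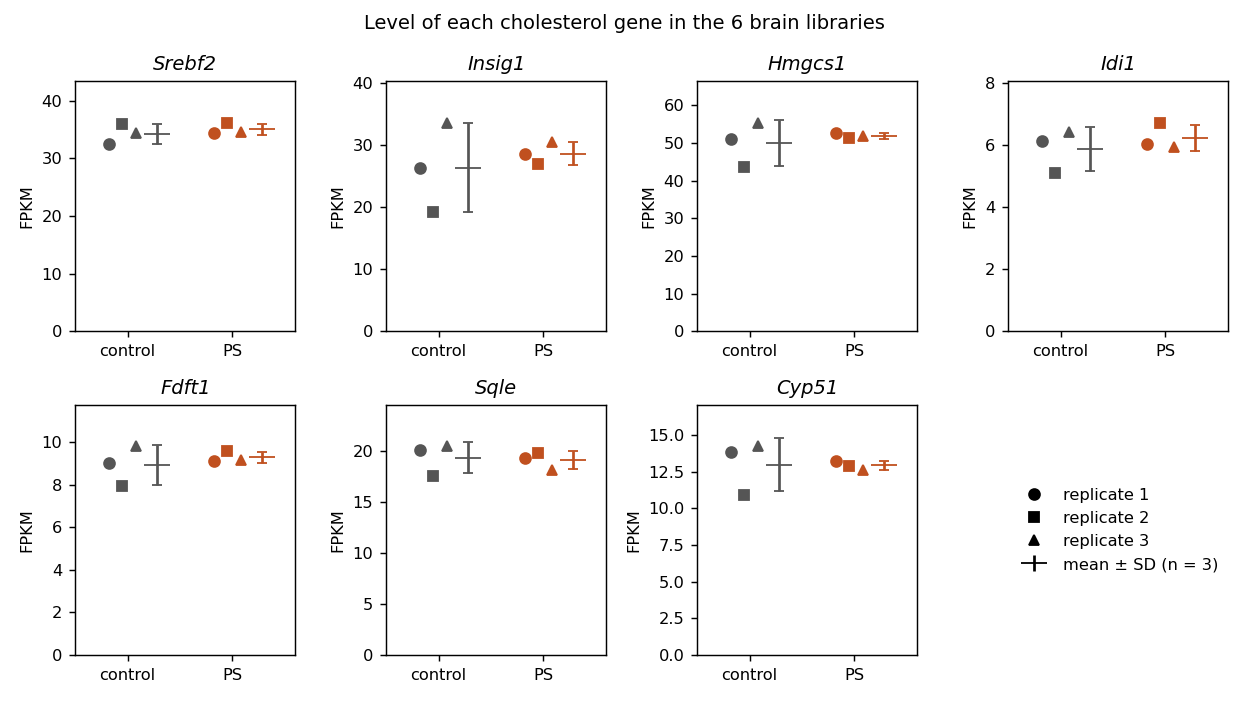
FPKM of the 7 genes in the 6 libraries (y axes start at 0 and differ between genes); grey points are control, orange points PS, the shape gives the replicate number, and bars are the mean ± SD (n = 3). Control replicate 2 (grey square) is the lowest point for every gene but Srebf2, and the PS points lie closer together than the control points in all 7.

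Srebf2 encodes SREBP2, the master regulator of the pathway. Its level was 32.4, 35.9 and 34.4 FPKM in control replicates 1, 2 and 3, and 34.4, 36.2 and 34.6 FPKM in PS replicates 1, 2 and 3. It was the steadiest member, and the only one whose lowest value fell outside control replicate 2. The group means were 34.3 ± 1.76 and 35.1 ± 0.981 FPKM, a log2 fold change of 0.034 (interval from -0.100 to 0.169, adjusted p = 0.983).

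Insig1 encodes the sterol-regulated anchor that keeps SCAP and the SREBPs in the endoplasmic reticulum, and is itself a target of SREBPs. Its control values spread widely, at 26.3, 19.3 and 33.7 FPKM, whereas the PS values were 28.6, 26.9 and 30.6 FPKM. All 3 PS values lay between the control extremes. Control replicate 3 stood 1.743 times above control replicate 2, against a range of 1.136 times among the PS libraries. The means were 26.4 ± 7.18 and 28.7 ± 1.84 FPKM, a log2 fold change of 0.15 (interval from -0.22 to 0.51, adjusted p = 0.978). That interval, the widest of the 7, leaves room for a change of either sign.

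Hmgcs1 encodes the cytosolic HMG-CoA synthase, which makes HMG-CoA, the precursor of mevalonate. It measured 51.0, 43.5 and 55.3 FPKM in control, and 52.6, 51.2 and 51.7 FPKM in PS. The PS libraries differed among themselves by a factor of 1.028, the tightest of any member, and lay inside the control range. The log2 fold change was 0.060 (interval from -0.13 to 0.25, adjusted p = 0.979).

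Idi1, the isomerase that converts the building block isopentenyl diphosphate to its reactive form, was the lowest of the 7. Its values were 6.13, 5.09 and 6.42 FPKM in control and 6.04, 6.73 and 5.94 FPKM in PS. PS replicate 2 was the highest of the 6, and the other 2 PS libraries lay within the control range. The log2 fold change was 0.076 (interval from -0.12 to 0.28, adjusted p = 0.979). Transcripts of Idi1 share 17.7% of their words of 50 bases with the annotated copy Gm13502 and 5.09% with Gm35570, so some of its reads are of uncertain origin. Among the other members, transcripts of Fdft1 share 9.38% with Gm6781 and those of Insig1 2.17% with Gm37784, and the same caution holds for them.

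Fdft1 encodes squalene synthase, the first enzyme committed to sterols. It stood at 8.99, 7.94 and 9.79 FPKM in control and 9.10, 9.57 and 9.17 FPKM in PS, with all PS values inside the control range. The log2 fold change was 0.057 (interval from -0.12 to 0.23, adjusted p = 0.979). In the reference annotation Fdft1 overlaps Ctsb, a lysosomal protease gene on the opposite strand with a mean of 140.0 FPKM here, and no source used here says whether counting used strand, so reads of the overlap cannot be assigned with certainty. The mean of Ctsb was 137.6 ± 4.96 FPKM in the control libraries and 142.4 ± 0.486 in the PS libraries (limma adjusted p = 0.976).

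Sqle, squalene epoxidase, a rate-limiting step after squalene, measured 20.1, 17.6 and 20.5 FPKM in control and 19.4, 19.9 and 18.1 FPKM in PS. It was the one member with a negative estimate, at -0.018 (interval from -0.18 to 0.15, adjusted p = 0.996). Cyp51, the lanosterol demethylase, measured 13.8, 10.9 and 14.2 FPKM in control and 13.2, 12.9 and 12.6 FPKM in PS. For both genes every PS value fell within the control range. The log2 fold change of Cyp51 was 0.0021 (interval from -0.21 to 0.21, adjusted p = 0.998). Cyp51 overlaps Akap9, on the opposite strand, in the reference annotation.

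As a set, 6 of the 7 genes had a positive log2 fold change, with a median of 0.057, beside 51.4% positive and a median of 0.003 over all tested genes. This balance turned on control replicate 2. Without it, 1 of 7 was positive (Srebf2, 0.069) and the median was -0.034, beside -0.0049 over all tested genes. Insig1 went to -0.052, Hmgcs1 to -0.034, Idi1 to -0.0089, Fdft1 to -0.015 and Cyp51 to -0.11. Leaving out control replicate 3 moved the set the other way, to 7 of 7 positive and a median of 0.12. Insig1 then reached 0.33 (interval from 0.058 to 0.61, adjusted p = 0.28), the nearest any member came to the threshold when 1 library was left out. Smaller turns of sign came with other libraries left out: Sqle went to 0.0079 and Srebf2 to -0.0034 without control replicate 1, Sqle to 0.018 without PS replicate 3, and Cyp51 to -0.015 without PS replicate 1. No member was called in any of 15 alternative settings, in which the lowest limma adjusted p of a member ran from 0.176 to 1. The 0.176 belonged to Srebf2 with library weights, where its log2 fold change was 0.0996 (interval from 0.0051 to 0.194, unadjusted p = 0.0408) and the median of the 7 genes was 0.028.

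**Figure D2:**
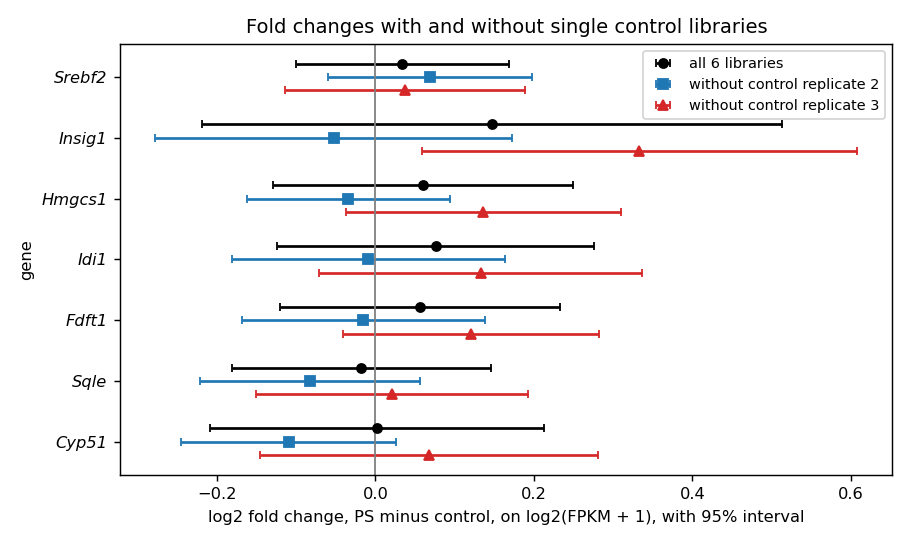
Log2 fold change of each gene, PS minus control, on the log2(FPKM + 1) scale (x axis), as points with 95% intervals, from all 6 libraries (black), without control replicate 2 (blue) and without control replicate 3 (red). Black and red points lie mostly right of 0; blue points lie left of 0 for every gene but Srebf2, and the red interval of Insig1 alone runs from 0.058 to 0.61 without crossing 0.

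The members differed more between control libraries than between PS libraries. The SD of log2(FPKM + 1) was larger in control for 7 of 7, as it was for 68.2% of all tested genes. The ratio of the control SD to the PS SD had a median of 3.86 over the members, from 1.77 (Sqle) to 8.83 (Hmgcs1), beside a median of 1.48 over all tested genes. With 3 libraries a group an SD is itself poorly known, and this contrast was not tested. For 5 of the 7 (Insig1, Hmgcs1, Fdft1, Sqle and Cyp51) the lowest value was in control replicate 2 and the highest in control replicate 3, an arrangement shown by 11.1% of all tested genes. All 3 PS values fell inside the control range for 5 of 7 members and for 32.3% of all tested genes.

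The spread between control libraries was larger than the counting error for all 7 genes. The reads behind a member ran from 573 (Idi1 in control replicate 2) to 9245 (Hmgcs1 in control replicate 3), which gives a counting error of 1.04% to 4.18% of the value. The coefficient of variation between control libraries was 27.2% for Insig1, 13.9% for Cyp51 and 12.01% for Hmgcs1, and 6.41%, 2.39% and 1.39% between PS libraries. The PS spread of Cyp51 and Hmgcs1 was close to their counting error, which was 2.02% to 2.32% and 1.04% to 1.18%.

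In control replicate 2, Insig1 stood at 66.1% of its mean over the other 5 libraries, and the 5 enzymes at 81.5% (Idi1) to 89.9% (Sqle). Srebf2 stood at 104.5% there. The ratio of Insig1 to Srebf2, both per gene length, was 0.537 there and 0.744 to 0.979 elsewhere.

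**Figure D3:**
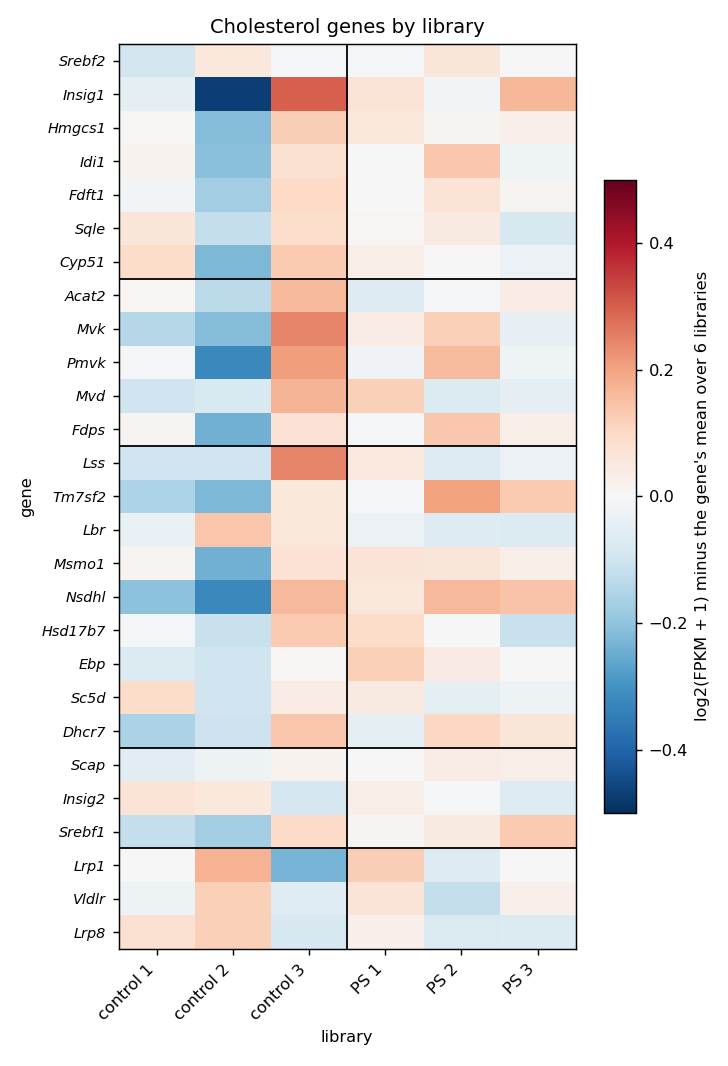
Log2(FPKM + 1) of each gene (rows) in each library (columns) minus the gene's mean over the 6 libraries; red is above and blue below that mean. Black lines part, from the top, the 7 genes, the other mevalonate steps, the steps from squalene to cholesterol, 3 genes of SREBP control and 3 receptor genes; most synthesis genes are blue in control replicate 2 and red in control replicate 3, whereas Srebf2, Lbr, Insig2, Lrp1, Vldlr and Lrp8 are red in control replicate 2.

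Several marker lists also moved in control replicate 2, beside these genes, in both directions, and others stayed inside the range of the other libraries. All 11 oligodendrocyte and myelin markers had their lowest value there, none was at 0 in any library, and their summed level was 908.3 FPKM, against 1163 and 1313 in the other control libraries and 1245 to 1371 in PS. All 5 choroid plexus markers were lowest there, at a summed 631.5 FPKM against 779.5 to 1293. Of the 8 astrocyte markers 5 were lowest and 1, Slc1a2, was highest there; their sum was 817.4 FPKM against 849.4 to 940.1 FPKM elsewhere, with Aldoc alone at 404.7 FPKM against 449.1 to 522.3 FPKM. Of the 8 neuron markers 5 were highest there, among them Slc17a7 (346.5 FPKM against 270.4 to 311.1 FPKM elsewhere), and 2 were lowest, among them Slc17a6, a gene of thalamic and brainstem neurons (15.8 FPKM against 26.3 to 32.5 FPKM). These single markers were picked after their values were seen, and the summed neuron level of 2026 FPKM lay inside the range of the other libraries (1886 to 2054 FPKM). Of the 6 endothelial markers 5 were highest there, at a summed 53.5 FPKM against 38.2 to 44.9 FPKM. Of the 7 oligodendrocyte precursor markers 4 were lowest there (summed 86.5 FPKM against 94.4 to 115.4 FPKM). The 4 cerebellar markers, with 1 lowest there, summed to 149.93 FPKM, inside the range of the other libraries (149.87 to 231.4 FPKM). The 6 microglia markers, with 0 lowest and 1 highest there, summed to 117.1 FPKM, also inside that range (108.5 to 124.6 FPKM). Against control, all 11 oligodendrocyte and myelin markers were positive in PS (median log2 fold change 0.25), also without control replicate 2 (0.0935). Of the 7 oligodendrocyte precursor markers 6 were positive (median 0.28, and 0.31 without that library). The exception was Pdgfra, at 7.72 ± 0.683 FPKM in control and 7.25 ± 0.190 FPKM in PS (log2 fold change -0.078, limma adjusted p = 0.975). In this list 6 did not overlap between groups, beside 11.3% of all tested genes. In these 2 lists 0 were called (lowest limma adjusted p = 0.0828, Sox10). All 6 endothelial markers were negative (median -0.196, 1 called). Without control replicate 2 their median was -0.142, and 2 of the 6 were positive. All 5 choroid plexus markers were positive (median 0.21), but without control replicate 2 the median was -0.031, with 2 of 5 positive. All 4 cerebellar markers were positive (median 0.23, and 0.18 without it). PS replicate 1 was highest for all 5 and all 4. Medians were 0.035 for astrocyte (6 of 8 positive), 0.011 for neuron (6 of 8) and 0.075 for microglia markers (3 of 6). The part of cell or region makeup in the levels of the cholesterol genes was not tested.

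**Figure D4:**
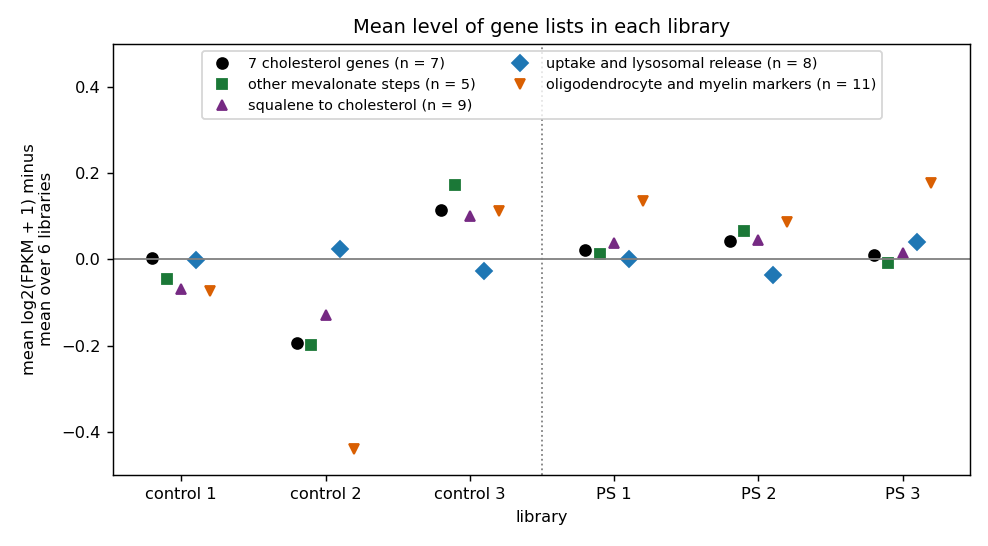
Mean over each gene list of log2(FPKM + 1) minus the gene's mean over the 6 libraries (y axis) in each library (x axis); n is the number of tested genes in a list, and lists may be compared within a library. The 7 genes, both lists of other synthesis genes and the myelin markers are lowest in control replicate 2 (-0.19, -0.20, -0.13 and -0.44), while the mean of the uptake list stays between -0.037 and 0.041 in all libraries. That mean holds shifts of both signs. In control replicate 2, 4 of the 8 uptake genes were highest and 1 was lowest, with Lrp1 at 0.17 and Npc2 at -0.28.

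Other genes of the pathway were tested in the same limma fit, and none of the listed genes that were tested was called. Some genes of the pathway are not reported here, and Ch25h and Pdss1 were below the level filter. In the 7 lists that follow, an unadjusted p under 0.05 was reached by 1 gene between squalene and cholesterol (Tm7sf2) and by 1 of the isoprenoid branch (Fntb). Of 5 other genes of the mevalonate steps, all tested, 4 were positive and 1 negative, with a median log2 fold change of 0.076 and 0 called. Fdps, farnesyl diphosphate synthase, which feeds both sterols and isoprenoids, was at 26.7 ± 3.12 and 28.7 ± 1.56 FPKM (adjusted p = 0.967). Its log2 fold change of 0.10 went to 0.0093 without control replicate 2. Mevalonate kinase, encoded by Mvk, was at 8.69 ± 1.73 and 9.12 ± 0.559 FPKM (adjusted p = 0.98). Pmvk, the kinase of the next step, measured 7.61, 5.92 and 9.01 FPKM in control and 7.55, 8.65 and 7.52 FPKM in PS (log2 fold change 0.079, adjusted p = 0.981). Pmvk was lowest in control replicate 2 and highest in control replicate 3. In this list 4 of 5 genes were lowest in control replicate 2, and without that library 1 of 5 was positive, the log2 fold changes of Mvk and Pmvk going to -0.013 and -0.062.

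Between squalene and cholesterol, 5 of 9 genes were positive and 4 negative (median 0.081, 0 called). Nsdhl, a sterol dehydrogenase of the demethylation complex, measured 8.14, 7.42 and 10.8 FPKM in control and 9.96, 10.8 and 10.6 FPKM in PS. Tm7sf2, a sterol reductase, measured 5.59, 5.27 and 6.60 FPKM in control and 6.27, 7.43 and 7.01 FPKM in PS. In both genes control replicate 3 reached into the PS range. Their log2 fold changes were 0.24 and 0.21 (limma adjusted p = 0.844 and 0.824), and both were called when libraries were weighted by their estimated quality (adjusted p = 0.029 and 0.0408), a setting that called 632 of all 12229 genes. Ebp, a sterol isomerase, was at 8.58 ± 0.367 and 9.32 ± 0.428 FPKM (log2 fold change 0.11, adjusted p = 0.916). Without control replicate 2 the median of the list was 0.0065, with 5 of 9 positive, and Nsdhl went to 0.14.

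Genes that process SREBPs or sense sterols lay near 0, with 6 of 10 positive, a median of 0.024 and 0 called. Scap, the escort of the SREBPs, averaged 17.7 ± 0.480 FPKM in control brains and 18.2 ± 0.273 FPKM in PS brains (adjusted p = 0.979). Srebf1, which encodes the SREBP of fatty acid synthesis, was at 13.3 ± 1.45 and 14.6 ± 0.663 FPKM (log2 fold change 0.13, adjusted p = 0.922), and Erlin1, a membrane protein that binds cholesterol and restrains SREBPs, at 5.02 ± 0.417 and 4.63 ± 0.132 FPKM (log2 fold change -0.096, adjusted p = 0.951). Of 9 fatty acid synthesis genes that SREBPs control, 7 were positive (median 0.072, 0 called), among them Scd2, the main desaturase of brain, at 340.9 ± 24.5 and 369.5 ± 18.5 FPKM (adjusted p = 0.921), Acss2 (log2 fold change 0.10) and Acly (0.072). In this list 6 of 9 genes were lowest in control replicate 2. Without that library 8 of 9 were positive and the median was 0.022, with Scd2 going from 0.12 to 0.061, Acss2 to 0.010 and Acly to 0.022. Of the genes of SREBP control, Srebf1 went to 0.074, and the median of their list to 0.0046.

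Uptake and lysosomal release gave 4 of 8 genes positive, a median of -0.0009 and 0 called. Npc1, the lysosomal cholesterol exporter, was the one gene of this list whose groups did not overlap, at 13.93, 13.96 and 13.52 FPKM in control and 14.65, 14.02 and 15.06 FPKM in PS, with a log2 fold change of 0.074 (adjusted p = 0.951). The gap between the groups was narrow, from 13.96 to 14.02 FPKM. Its soluble partner Npc2, which hands cholesterol on inside the lysosome, measured 24.4, 19.5 and 26.2 FPKM in control and 23.6, 24.7 and 26.3 FPKM in PS. It too was lowest in control replicate 2, and its log2 fold change of 0.094 (adjusted p = 0.975) went to -0.024 without that library. Lrp8, an apolipoprotein E receptor of neurons, was at 6.98 ± 0.573 and 6.56 ± 0.292 FPKM (log2 fold change -0.076, adjusted p = 0.975), and went to -0.036 without control replicate 2.

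Efflux, storage and turnover genes had 8 of 11 tested members positive (median 0.026, 0 called). Lcat, which esterifies cholesterol on lipoproteins, averaged 12.3 ± 1.71 FPKM in control brains and 14.1 ± 1.22 FPKM in PS brains (adjusted p = 0.887). The cholesterol exporter Abca1 was at 6.36 ± 0.621 and 5.63 ± 0.482 FPKM (log2 fold change -0.15, adjusted p = 0.899), and Nr1h2, the sterol-sensing nuclear receptor LXR-beta, at 11.2 ± 0.800 and 11.8 ± 0.947 FPKM (adjusted p = 0.976). Without control replicate 2 the log2 fold changes went from 0.18 to 0.081 for Lcat, to -0.082 for Abca1 and from 0.071 to 0.034 for Nr1h2. Ch25h, a cholesterol hydroxylase whose product holds back SREBP processing, was below the level filter. It was singled out after its values were seen, which were 0.590, 0.821 and 1.72 FPKM in control and 0.256, 0.218 and 0.128 FPKM in PS, on 32, 44 and 93 against 14, 12 and 7 reads. The PS values lay below all controls, and in the fit without a filter the log2 fold change was -0.73 (SE 0.20, unadjusted p = 0.00998, limma adjusted p = 0.727).

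On the isoprenoid branch, which leaves the pathway at farnesyl diphosphate, 2 of 6 tested genes were positive (median -0.0062, 0 called). Fntb, the beta subunit of farnesyltransferase, measured 10.7, 10.4 and 10.9 FPKM in control and 12.7, 12.1 and 12.4 FPKM in PS. The groups did not overlap, and the log2 fold change was 0.20 (interval from 0.073 to 0.33, limma unadjusted p = 0.00632, adjusted p = 0.533). It stayed between 0.19 and 0.22 when each library was left out in turn, and was called with library weights (adjusted p = 0.0289). Ggps1, which makes geranylgeranyl diphosphate, was the other gene of the branch without overlap, at 11.2, 10.4 and 10.3 FPKM in control and 10.1, 9.89 and 9.80 FPKM in PS (log2 fold change -0.091, adjusted p = 0.939). Dhdds, which starts dolichol synthesis, was at 20.1 ± 1.57 and 21.2 ± 0.874 FPKM (adjusted p = 0.973), and its log2 fold change of 0.078 went to 0.037 without control replicate 2. The median of the branch was then -0.043.

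The genes most like the members were looked for over the 6 libraries, by Pearson r with the mean of the 7 standardised profiles. They were Galk2, a sugar kinase (r = 0.996), Cat, which encodes catalase (0.996), Etfa, an electron carrier of mitochondrial fatty acid oxidation (0.995), Calb2, which encodes calretinin (0.995), Chga, the granin chromogranin A (0.995), and Snx17, a sorting nexin (0.993). The profile, like these 6 genes, had its lowest point in control replicate 2 and its highest in control replicate 3. Without control replicate 2, over 5 libraries, r was 0.970 (Snx17) to 0.988 (Calb2). These 5 libraries were among the 6 by which the genes were picked, so a high r there was partly set by the choice. Of all 12229 tested genes, 4.12% had an r above 0.9, a looser cut than the r of these 6 genes. Of the members themselves, Fdft1 had an r of 0.993 and Srebf2 of -0.22 with the profile that includes them. All points share the same 6 libraries, and r is given as a description.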

How the data were processed

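RNA sequencing of whole mouse brain gave 6 libraries, 3 control and 3 PS, grouped by their titles. The authors deposited 1 table of FPKM per library; the submitters' processing notes name GRCm39, fastp, HISAT2, HTSeq and R 3.2.0, without order or settings. Promoter sequences come from another build (GRCm38.p6), and so do gene overlaps and shared words of 50 bases, which are given by name only.

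FPKM steps gave whole reads (within 0.02 reads) for 99.92% of 26556 genes above 0, used for depth and for voom. A gene was tested if its FPKM averaged 1 or more (12229 kept, 15149 removed). PS was compared with control by limma 3.58.1 (R 4.3.3) on log2(FPKM + 1), which understates changes of low genes. The fit used a variance trend, group only, two-sided, 4 residual degrees of freedom and Benjamini-Hochberg adjustment over all tested genes. The pipeline was tested on simulated counts with the same spread in all libraries, so that test does not cover the unequal spread seen here. An exact test of 3 against 3 cannot go below p = 0.1.

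Members and lists were chosen with earlier results of these data known. Beside the members the text names Scap, up to 3 genes per list with the lowest unadjusted p, and the 6 genes most like the members, passing over predicted genes and clone names. Some genes that the rule and the lists held are not reported here and are left out of the lists' counts. Same-numbered libraries deviated together weakly (r = 0.181, 0.185 and 0.161, all above 0.1, with other pairs at -0.217 to 0.025). The labels state no pairing. The deviations were centred within each group, which forces some pairs above 0 and others below, so these values cannot establish 1. Replicates of a group differed beyond sampling noise (chi-square per degree of freedom 8.02 to 29.23). Alternatives were other pseudocounts, filters, rescalings and variance models, library weights, the block, voom, and each library left out.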

Additional observations from a re-analysis of the deposited data

How the results depend on the processing

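The count of called genes, 20 with all libraries, was 1 with no filter, 9 at a mean FPKM of at least 5, 632 with library weights and 48 with the replicate block, and ran from 0 (without PS replicate 2) to 66 (without control replicate 3) with 1 library left out; it was 2 both without control replicate 1 and without PS replicate 1. No member was called in any of these. The replicate number as a block changed no call of a member or of a named gene of the pathway; the median of the members stayed at 0.057 and their lowest adjusted p was 0.82. Of 105 values of members under the 15 alternatives, 93 kept their sign and side of the threshold and 12 turned sign. Leave-one-out ranges of the log2 fold change were -0.0034 to 0.069 for Srebf2, -0.052 to 0.33 for Insig1, -0.034 to 0.14 for Hmgcs1, -0.0089 to 0.13 for Idi1, -0.015 to 0.12 for Fdft1, -0.0825 to 0.021 for Sqle, -0.11 to 0.067 for Cyp51, -0.013 to 0.22 for Mvk, -0.062 to 0.20 for Pmvk and -0.024 to 0.18 for Npc2. The median of the members ran from -0.034 to 0.12. Cyp51 turned to -0.0068 when libraries were scaled to their non-mitochondrial total and to -0.080 with library weights, and Nr1h2 to -0.0073 with library weights; the cause was not tested. Of 314 values of Scap and the genes named for the lowest unadjusted p of their lists, 307 kept sign and side and 4 turned sign. The other 3 (Tm7sf2, Nsdhl and Fntb, with library weights) passed the threshold. The remaining pathway genes were not followed singly through the alternatives. With 3 libraries a group, the intervals of 6 members leave room for changes of up to 0.28 on the log2 scale, and that of Insig1 for 0.51.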
